A study of Mus musculus with 20 samples.

Results

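The 10 genes of cholesterol efflux and of the liver X receptor (LXR) response were followed across all 20 libraries. They were chosen by name, as genes of a textbook pathway, with no threshold on their values but with earlier results of these data known. All 10 were found by symbol among the 46078 genes of the count tables. They comprise the transporters Abca1, Abcg1 and Abcg4, the apolipoproteins Apoe and Apoc1, the phospholipid transfer protein gene Pltp, the receptors Nr1h2 and Nr1h3, and the LXR targets Mylip and Lpcat3.

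The RNA came from the brains of wild type male C57BL/6J mice aged 18 months, all of which had a DH stroke, in which the distal middle cerebral artery is closed and the animal then breathes low oxygen. From 1 week after stroke the mice were injected under the skin, 3 times per week for 6 weeks, with sterile PBS (vehicle) or with 4 g/kg of 2-hydroxypropyl-beta-cyclodextrin (HPBCD), a ring of sugars that takes up lipids. Tissue was taken 7 weeks after stroke from the peri-infarct region and from the matching contralateral region, which gave 4 groups of 5 libraries. No sham-operated mice are among these libraries, so the contralateral tissue of a stroked animal is the reference. The peri-infarct and contralateral libraries of a number carry the same identifier in their deposited names and were taken as 1 animal, whereas the vehicle and HPBCD animals are different animals.

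Cells cannot break down the sterol ring, and surplus cholesterol leaves them through ABC transporters onto lipoprotein particles. In the brain these particles are built mainly on apolipoprotein E, which astrocytes secrete and which reactive microglia and macrophages also make. When cholesterol accumulates, oxysterols bind the nuclear receptors LXR alpha and LXR beta, which pair with retinoid X receptors and switch on the transporters, the apolipoproteins and enzymes that remodel membrane lipids.

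Promoter windows of 300 bases (250 before and 50 from the transcription start on) were held by RefSeq on GRCm38.p6 for 7 of the 10 genes. Of these, 3 are printed, 5′ to 3′ on the gene's strand. Abca1 (chr4:53159846-53160145, minus strand) is shown for a match to the direct repeat that LXR binds with its partner. Mylip (chr13:45389492-45389791, plus strand) and Pltp (chr2:164857659-164857958, minus strand) are shown because the difference between regions of these 2 genes differed between treatments. Capitals mark the repeat in Abca1 and TATAAA in each of the 3 windows.
Abca1: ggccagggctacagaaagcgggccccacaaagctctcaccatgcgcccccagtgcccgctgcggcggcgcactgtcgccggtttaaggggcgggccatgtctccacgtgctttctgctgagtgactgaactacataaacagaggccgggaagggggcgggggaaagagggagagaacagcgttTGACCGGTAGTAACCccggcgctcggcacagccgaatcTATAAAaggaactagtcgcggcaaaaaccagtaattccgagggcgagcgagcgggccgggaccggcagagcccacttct
Mylip: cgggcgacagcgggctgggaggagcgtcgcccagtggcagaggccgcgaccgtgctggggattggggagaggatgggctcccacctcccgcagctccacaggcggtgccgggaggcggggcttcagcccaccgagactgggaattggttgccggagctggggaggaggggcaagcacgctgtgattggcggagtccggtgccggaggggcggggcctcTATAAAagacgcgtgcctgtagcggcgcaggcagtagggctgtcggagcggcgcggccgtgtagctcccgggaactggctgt
Pltp: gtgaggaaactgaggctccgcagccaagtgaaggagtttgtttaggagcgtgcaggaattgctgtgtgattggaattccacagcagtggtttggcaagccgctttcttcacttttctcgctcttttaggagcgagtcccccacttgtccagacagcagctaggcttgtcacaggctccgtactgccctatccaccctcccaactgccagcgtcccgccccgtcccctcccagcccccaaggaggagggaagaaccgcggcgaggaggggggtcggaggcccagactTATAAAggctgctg

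The repeat was searched on both strands as GGTNA and GGTCA with 5 bases between them, letters that were chosen with the Abca1 window in view. It was found in Abca1 on the opposite strand, from base -67 to -53 of the start, and in 68 of all 32851 mouse windows of this length (0.207%). None of the other 6 members with a window held it. TATAAA stood from base -29 to -24 in Abca1, from -32 to -27 in Mylip and from base 37 to 42 after the start in Pltp. It was present in 13.6% of all windows. These matches describe letters and are not measured binding sites.

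The libraries held between 14445021 and 22171627 counts in genes (median 19008532). Levels are given as CPM, counts scaled to a common library size, scaled between libraries by the trimmed mean of M values (TMM), and 3 counts correspond to 0.135 to 0.208 CPM. Tests were edgeR quasi-likelihood tests on the counts, with p-values adjusted over all genes tested by the Benjamini-Hochberg method, and a gene was called higher or lower at an adjusted p under 0.05. A log2 fold change is given with its standard error (SE). Each 2-group test used the 10 libraries of its groups, and each comparison of regions shares its libraries with a comparison of treatments. The main tests between regions and of the interaction did not pair the libraries of an animal. A block for the animal was run as an alternative. Libraries stood apart within the peri-infarct groups. Vehicle peri-infarct replicate 3 was the highest of its group for 9 of the 10 members and replicate 2 the lowest for 6, and HPBCD peri-infarct replicate 4 was the highest for 7 and replicate 2 the lowest for 7.

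**Figure D1:**
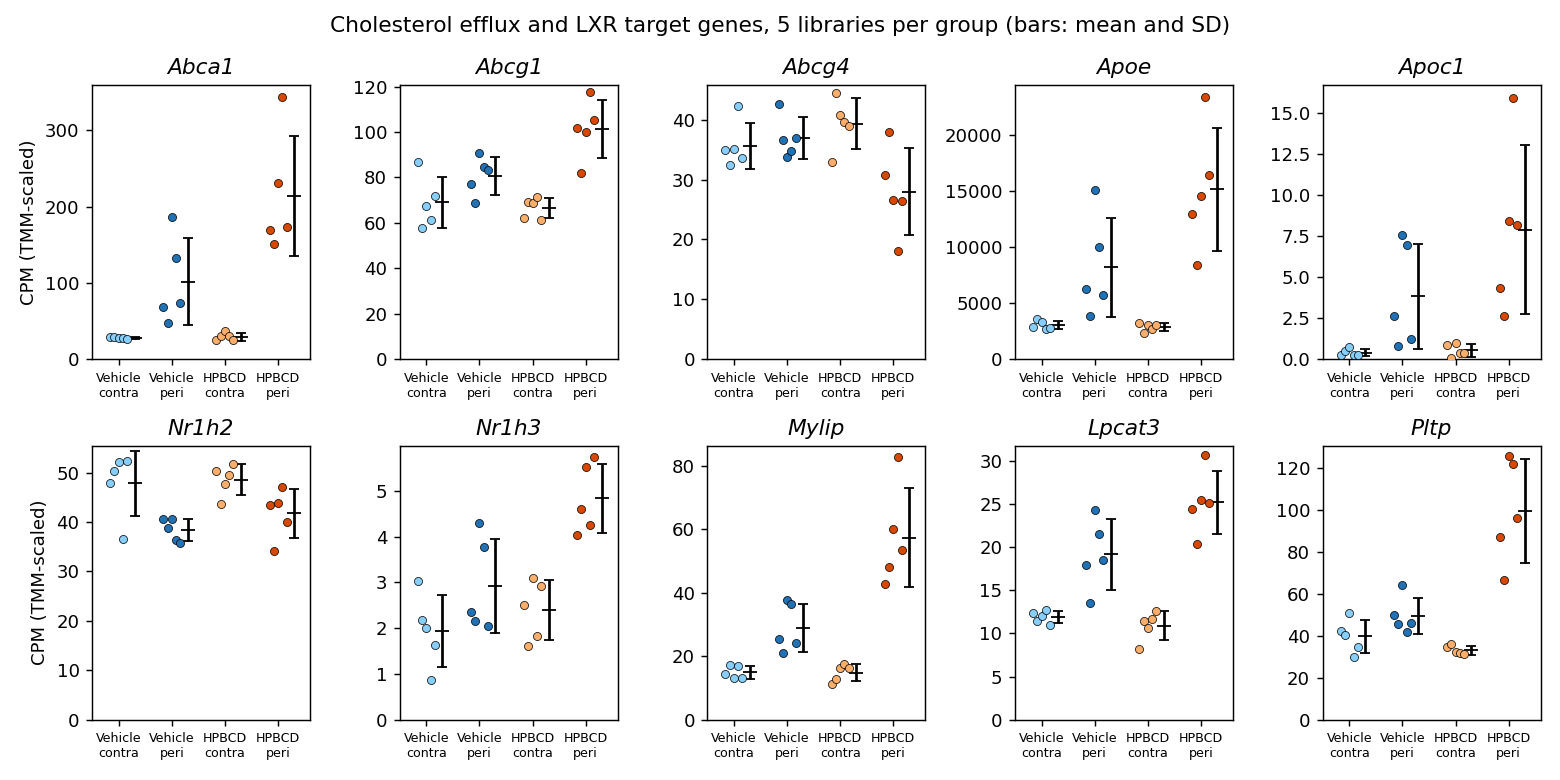
CPM of each member (vertical axis, linear, TMM-scaled) in the 5 libraries of each of the 4 groups, with the mean and SD as bars. Both contralateral groups sit at like levels for each gene, and the peri-infarct points of Abca1, Apoe, Apoc1, Mylip and Lpcat3 all lie above the contralateral points of the same treatment.

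The order of the members was set on CPM per kilobase of exon, which allows genes of different length to be compared. In vehicle contralateral tissue the Apoe level was 1427 ± 171 CPM per kilobase (SD, n = 5), far above all others. Pltp followed at 15.5 ± 3.13 and Nr1h2 at 14.3 ± 1.96, which did not differ beyond their spread. Abcg1 (9.46 ± 1.56), Abcg4 (6.85 ± 0.738), Mylip (4.64 ± 0.635), Lpcat3 (3.64 ± 0.210) and Abca1 (2.67 ± 0.132) came next, each apart from its neighbour by more than 1 SD of both. Nr1h3 (0.772 ± 0.313) and Apoc1 (0.521 ± 0.283) were the lowest and overlapped. In HPBCD contralateral tissue the order was the same except that Nr1h2 and Pltp, again within their spread, changed places.

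Abca1 was thus the eighth of the 10 in both contralateral groups. In HPBCD peri-infarct tissue it was the third, at 20.6 ± 7.61 CPM per kilobase, behind Apoe (7085 ± 2575) and Pltp (38.9 ± 9.70) and within its spread of Mylip (17.8 ± 4.83). In vehicle peri-infarct tissue the levels from Nr1h2 (11.5 ± 0.674) down to Nr1h3 (1.16 ± 0.411) overlapped each with the next, so that neighbours in this order did not differ beyond their spread.

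The first comparison asked how the peri-infarct region of vehicle mice differed from their contralateral tissue. In the peri-infarct region 5 members rose, namely Abca1, Apoe, Apoc1, Mylip and Lpcat3, and 1, Nr1h2, fell. Of all 15801 genes tested, 10.5% were called higher and 9.70% lower. The median log2 fold change of the 10 members was 0.63, against 0.01 for all genes tested.

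In HPBCD mice, where the same question was asked, 8 members rose (Abca1, Abcg1, Apoe, Apoc1, Nr1h3, Mylip, Lpcat3 and Pltp) and 2 fell (Abcg4 and Nr1h2). This comparison called a large part of the genome, 30.3% of 16047 genes higher and 24.3% lower. The median log2 fold change of the members was 1.39, against 0.03 for all genes.

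**Figure D2:**
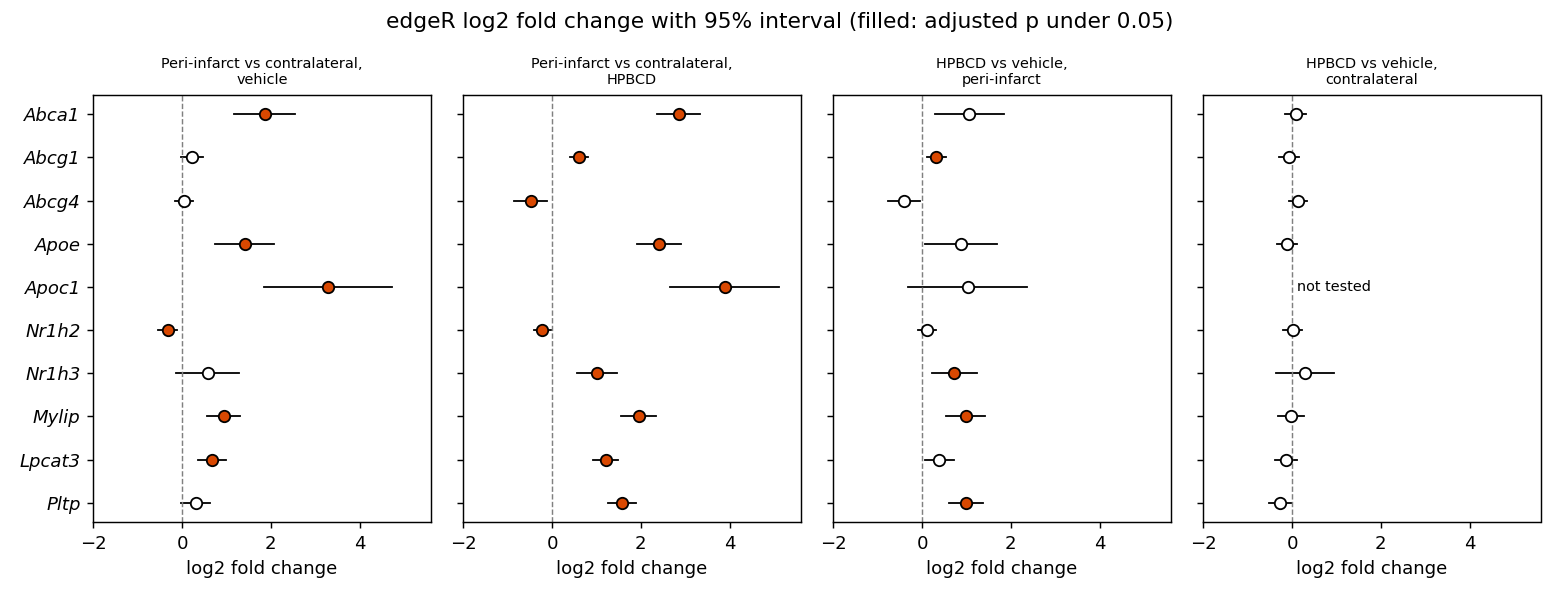
Log2 fold change of each member (horizontal axis) with its 95% interval in the 4 comparisons of 2 groups; filled points have an adjusted p under 0.05. Between regions 6 members are called in vehicle mice and all 10 in HPBCD mice, and 4 between treatments in peri-infarct tissue and none in contralateral tissue, where Apoc1 did not pass the filter on low counts.

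Abca1 (ENSMUSG00000015243, chr4:53030787-53159895, minus strand) encodes the transporter that moves cholesterol and phospholipid onto lipid-poor apolipoproteins. Its level in vehicle contralateral tissue was 28.3, 29.3, 28.1, 27.0 and 25.7 CPM in replicates 1 to 5, and in vehicle peri-infarct tissue 68.3, 47.6, 186, 132 and 73.0 CPM. All 5 peri-infarct libraries were above all contralateral ones, and they differed from each other far more (SD 56.8 against 1.36 CPM). The log2 fold change was 1.86 (SE 0.31, adjusted p = 0.00348), a 3.64-fold higher level.

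In HPBCD mice Abca1 stood at 24.4, 30.6, 37.2, 30.2 and 25.0 CPM in the contralateral and at 169, 150, 231, 344 and 173 CPM in the peri-infarct libraries. The groups did not overlap, with a log2 fold change of 2.85 (SE 0.22, adjusted p = 9.63e-07), or 7.23-fold. Between treatments in peri-infarct tissue the log2 fold change was 1.07 (SE 0.36, adjusted p = 0.0524) and was not called. The highest vehicle library, at 186 CPM, lay above HPBCD replicates 1, 2 and 5. Without vehicle peri-infarct replicate 3 the difference was 1.41 and was called (adjusted p = 0.0148), and DESeq2 called it with all libraries (adjusted p = 0.0136).

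Abcg1 (ENSMUSG00000024030, chr17:31057675-31117988, plus strand) encodes a half-transporter that passes cholesterol to particles that already carry lipid. Its CPM in vehicle contralateral replicates 1 to 5 was 87.0, 57.8, 67.4, 61.2 and 71.7, and in vehicle peri-infarct replicates 77.0, 68.5, 90.8, 84.5 and 83.1. The groups overlapped, with contralateral replicates 1 and 5 above peri-infarct replicate 2, and the log2 fold change of 0.22 (SE 0.11) was not called (adjusted p = 0.200). Without vehicle contralateral replicate 1 it was 0.33 and was called (adjusted p = 0.0363). In HPBCD mice the contralateral libraries lay between 61.1 and 71.4 CPM and the peri-infarct libraries between 82.2 and 118 CPM, with no overlap and a log2 fold change of 0.61 (SE 0.09, adjusted p = 0.000129).

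The same vehicle contralateral replicate 1 stood apart in Rxrg, the retinoid X receptor that is known from the striatum. It held 65.5 CPM of Rxrg, against 1.36 to 2.45 CPM in the other 4 libraries of the group. The part of tissue composition in the Abcg1 value was not tested.

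Abcg4 (ENSMUSG00000032131, chr9:44273188-44288615, minus strand) encodes the closest relative of Abcg1, known mainly from neurons and other cells of the nervous system. In vehicle mice its level was 35.7 ± 3.85 CPM (SD, n = 5) in contralateral and 37.0 ± 3.49 CPM in peri-infarct tissue, a log2 fold change of 0.04 with a 95% interval from -0.16 to 0.24. In HPBCD mice the contralateral libraries held 32.9, 44.5, 40.9, 39.6 and 39.0 CPM and the peri-infarct libraries 30.8, 38.0, 26.6, 18.0 and 26.5 CPM. Peri-infarct tissue was the lower of the pair in all 5 animals although the groups overlapped, and the log2 fold change was -0.48 (SE 0.17, adjusted p = 0.0271). The call was lost without HPBCD contralateral replicate 2 (adjusted p = 0.0618) and without replicate 3 (0.0506).

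The 2 ABCG genes were set against each other within each library, which removes the scaling between libraries. In HPBCD mice the log2 ratio of Abcg4 to Abcg1 counts ranged from -2.70 to -1.11 in peri-infarct and from -0.92 to -0.64 in contralateral tissue. The difference was -1.13, with no overlap (exact permutation test, two-sided, p = 0.00794, the smallest that 5 against 5 libraries can give, adjusted over 16 tests of ratios 0.0317). In vehicle mice it was -0.18 (adjusted p = 0.391). The log2 ratio of Abca1 to Abcg1 was 1.46 higher in the peri-infarct region of vehicle mice and 2.20 higher in that of HPBCD mice, with no overlap in either (adjusted p = 0.0317 for each, same exact test). An exact sign-flip test within the 5 animals cannot go below p = 0.0625, so the ratios cannot pass when the animals are paired.

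**Figure D3:**
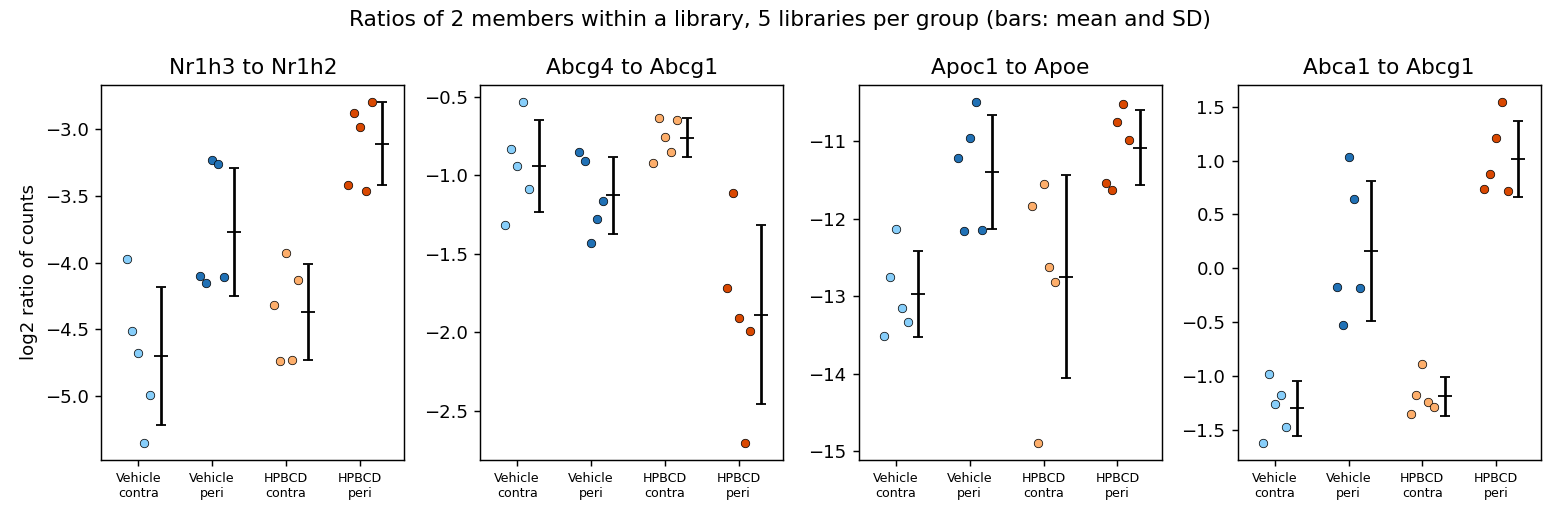
Log2 ratio of the counts of 2 members in the same library (vertical axis, each panel on its own scale) in the 5 libraries of each group, with the mean and SD as bars. The Abca1 to Abcg1 ratio is higher in every peri-infarct than in every contralateral library of the same treatment, and the Abcg4 to Abcg1 ratio of HPBCD peri-infarct libraries lies at -1.11 or lower.

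Apoe (ENSMUSG00000002985, chr7:19696109-19699188, minus strand) encodes the main apolipoprotein of brain lipoproteins. Vehicle contralateral libraries held 2886, 3557, 3312, 2719 and 2782 CPM and vehicle peri-infarct libraries 6260, 3869, 15080, 10002 and 5752 CPM. The groups did not overlap, but replicate 2 was close to the contralateral range, and in that animal the peri-infarct level was higher by only 0.12 on the log2 scale. The log2 fold change was 1.42 (SE 0.30, adjusted p = 0.00944).

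In HPBCD mice the Apoe levels were 3190, 2299, 3008, 2649 and 3055 CPM in contralateral and 12959, 8388, 14523, 23433 and 16436 CPM in peri-infarct tissue. Every animal's peri-infarct library was higher by at least 1.87 on the log2 scale, and the fitted log2 fold change was 2.41 (SE 0.23, adjusted p = 3.55e-06). Between treatments in peri-infarct tissue it was 0.88 (SE 0.37), with overlapping groups and an adjusted p of 0.105. DESeq2 called this difference (adjusted p = 0.0426), and so did the fit without vehicle peri-infarct replicate 3, at 1.22 (adjusted p = 0.0242).

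Apoc1 (ENSMUSG00000040564, chr7:19689481-19692660, minus strand) lies beside Apoe and encodes a small apolipoprotein of lipoprotein particles. It was close to the limit of detection in contralateral tissue, with 4 to 12 counts in a vehicle library and 1 to 17 in an HPBCD library. Vehicle peri-infarct libraries held 2.60, 0.820, 7.57, 6.92 and 1.24 CPM and HPBCD peri-infarct libraries 4.33, 2.64, 8.43, 15.9 and 8.13 CPM. Both peri-infarct groups lay above their contralateral group, with log2 fold changes of 3.29 (SE 0.66, adjusted p = 0.00733) in vehicle and 3.89 (SE 0.57, adjusted p = 8.92e-05) in HPBCD mice. These were the largest fold changes among the members, and at these counts also the least precise. The log2 ratio of Apoc1 to Apoe was 1.58 higher in the peri-infarct region of vehicle and 1.66 higher in that of HPBCD mice, in 5 of 5 animals each, but neither passed the adjustment (adjusted p = 0.0635 and 0.0508, exact permutation test).

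Pltp (ENSMUSG00000017754, chr2:164839518-164857711, minus strand) encodes the protein that transfers phospholipids between lipoproteins. Its exons share 495 bases with Ctsa on the other strand. The library kit keeps strand, but the strand setting of the counting was not given in the sources used here. Reads of this stretch may have been counted for a gene or left out as ambiguous, so the count of Pltp is uncertain to that extent. Vehicle contralateral libraries held 42.5, 40.7, 51.1, 30.1 and 34.6 CPM and vehicle peri-infarct libraries 50.0, 45.6, 64.3, 42.1 and 46.1 CPM. The groups overlapped, and the log2 fold change of 0.31 (SE 0.15) was not called (adjusted p = 0.173). Each of the 5 animals was nevertheless higher in the peri-infarct region, by 0.16 to 0.48 on the log2 scale, and with the animal as a block the difference was called (0.31, adjusted p = 0.0202).

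In HPBCD mice Pltp stood at 34.8, 36.2, 32.4, 31.7 and 31.3 CPM in contralateral and at 87.2, 66.5, 126, 122 and 96.1 CPM in peri-infarct tissue. The groups were far apart, with a log2 fold change of 1.58 (SE 0.15, adjusted p = 2.68e-06).

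Nr1h2 and Nr1h3 encode the receptors LXR beta and LXR alpha. Nr1h2 (ENSMUSG00000060601, chr7:44549616-44553951, minus strand), the form found in most tissues, held 47.8, 50.2, 52.2, 36.5 and 52.4 CPM in vehicle contralateral and 40.5, 38.8, 40.6, 36.3 and 35.9 CPM in vehicle peri-infarct libraries. It was lower in the peri-infarct region of all 5 animals, by 0.01 to 0.55 on the log2 scale. The fitted log2 fold change was -0.33 (SE 0.10, adjusted p = 0.0373) in vehicle and -0.22 (SE 0.09, adjusted p = 0.0496) in HPBCD mice, where again all 5 animals were lower. Both calls were marginal. The first was lost in 9 of 18 alternative fits, all of them with 1 library left out, and the second in 11 of 18.

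Nr1h3 (ENSMUSG00000002108, chr2:91184061-91202834, minus strand), the form known from macrophages, liver and fat, was present at 16 to 120 counts a library. It shares 34 exon bases with Gm13783 on the same strand. Vehicle libraries held 3.02, 2.18, 2.01, 0.870 and 1.62 CPM in contralateral and 2.35, 2.15, 4.29, 3.77 and 2.06 CPM in peri-infarct tissue, and the log2 fold change of 0.58 (SE 0.33) was not called (adjusted p = 0.233). HPBCD libraries held 2.50, 1.61, 3.10, 1.83 and 2.93 CPM in contralateral and 4.04, 4.61, 5.52, 4.25 and 5.74 CPM in peri-infarct tissue. These groups did not overlap, and the log2 fold change was 1.01 (SE 0.21, adjusted p = 0.00114).

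Within a library, the log2 ratio of Nr1h3 to Nr1h2 rose from between -4.73 and -3.93 in HPBCD contralateral to between -3.46 and -2.80 in HPBCD peri-infarct tissue. The difference was 1.26, with no overlap (exact permutation p = 0.00794, adjusted p = 0.0317). In vehicle mice it was 0.93, in 4 of 5 animals, and did not pass the adjustment (adjusted p = 0.0635). Nr1h2 remained the more abundant transcript per kilobase in all 4 groups.

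Mylip (ENSMUSG00000038175, chr13:45389742-45412022, plus strand) encodes the ubiquitin ligase IDOL, which is induced by LXR. Vehicle contralateral libraries held 14.4, 17.4, 13.04, 17.0 and 13.2 CPM and vehicle peri-infarct libraries 25.5, 21.0, 37.8, 36.5 and 24.2 CPM. The log2 fold change was 0.94 (SE 0.17, adjusted p = 0.00485), with no overlap. HPBCD contralateral libraries held 11.2, 12.8, 16.4, 17.6 and 16.2 CPM and HPBCD peri-infarct libraries 42.7, 48.0, 60.1, 82.8 and 53.4 CPM. All HPBCD peri-infarct libraries were above every library of the other 3 groups, and the log2 fold change between regions was 1.95 (SE 0.18, adjusted p = 2.74e-06).

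Lpcat3 (ENSMUSG00000004270, chr6:124663027-124704418, plus strand) encodes an enzyme that places polyunsaturated fatty acids into membrane phospholipids. Its exons share 334 bases with Emg1 on the other strand, so its counts carry the same uncertainty as those of Pltp. Vehicle contralateral libraries lay between 11.0 and 12.7 CPM and vehicle peri-infarct libraries at 17.9, 13.5, 24.3, 21.6 and 18.5 CPM, a log2 fold change of 0.67 (SE 0.14, adjusted p = 0.00815). HPBCD contralateral libraries lay between 8.19 and 12.6 CPM and HPBCD peri-infarct libraries at 24.4, 20.4, 25.4, 30.6 and 25.2 CPM, a log2 fold change of 1.21 (SE 0.13, adjusted p = 7.98e-06). Neither pair of groups overlapped.

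The third comparison asked what HPBCD changed in the peri-infarct region. In the libraries labelled HPBCD, 4 members were called higher than in those labelled vehicle, Pltp, Mylip, Nr1h3 and Abcg1, and none lower. The direction of this and of every other difference between treatments rests on the labels alone, since no transcript here checks which animals were treated, and it would turn if the labels were exchanged. Among all 16224 genes tested 12.4% were called higher and 9.00% lower, and the median log2 fold change was 0.80 for the members against 0.01 for all genes. Pltp was higher by 1.00 on the log2 scale (SE 0.17, adjusted p = 0.0128) and Mylip by 0.98 (SE 0.20, adjusted p = 0.0149), and in both the 2 groups of libraries did not overlap. Nr1h3 was higher by 0.72 (SE 0.23, adjusted p = 0.0468) and Abcg1 by 0.32 (SE 0.10, adjusted p = 0.0442), both with overlapping groups.

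Pltp and Mylip were called in all 18 alternative fits of this comparison, Nr1h3 in 11 and Abcg1 in 9. The count of called members ran from 2 to 8 when 1 library was left out. It was 7 when vehicle peri-infarct replicate 3 was left out and 8 when HPBCD peri-infarct replicate 2 was, and it was 2 without any of vehicle peri-infarct replicates 1, 2 and 5 or HPBCD peri-infarct replicates 3, 4 and 5. The 6 members that were not called had log2 fold changes of 1.07 (Abca1), 1.03 (Apoc1, adjusted p = 0.230), 0.88 (Apoe), 0.39 (Lpcat3, adjusted p = 0.0817), 0.11 (Nr1h2, adjusted p = 0.367) and -0.40 (Abcg4, adjusted p = 0.0992). The 95% intervals of Abca1 (0.29 to 1.84), Apoe (0.06 to 1.69) and Lpcat3 (0.06 to 0.72) lay above 0 without adjustment, so these data do not show that the treatments were alike in these genes.

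The fourth comparison asked whether HPBCD changed the contralateral tissue. None of the 9 members tested was called, and none of the 15469 genes was, which makes 0.00% higher and 0.00% lower by edgeR. Without adjustment 1224 genes had a p under 0.05, the smallest adjusted p was 0.236, and DESeq2 called 50 genes, none of them a member. Pltp had the lowest unadjusted p of the members (0.0481, adjusted p = 0.625), with a log2 fold change of -0.27 and a 95% interval from -0.53 to -0.0025. The 95% intervals bound the difference in contralateral tissue to between -0.16 and 0.32 for Abca1, -0.28 and 0.16 for Abcg1, -0.34 and 0.12 for Apoe and -0.33 and 0.27 for Mylip. Apoc1 did not pass the filter on low counts in this comparison.

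Whether the difference between regions itself differed between treatments was tested as an interaction over all 20 libraries. It was called for Pltp and Mylip, higher in HPBCD mice in both, and for no other member. Among 16758 genes 5.03% were called in the direction of higher and 4.38% of lower. The interaction was 1.26 for Pltp (SE 0.22, adjusted p = 0.0139) and 1.00 for Mylip (SE 0.26, adjusted p = 0.0276) on the log2 scale. Within single animals the peri-infarct level of Pltp was higher than the contralateral one by 0.16 to 0.48 in vehicle and by 0.88 to 1.96 in HPBCD mice. That of Mylip was higher by 0.27 to 1.54 in vehicle and by 1.72 to 2.23 in HPBCD mice. The 5 vehicle and 5 HPBCD animals did not overlap in either gene.

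Pltp was called in all 27 alternative fits of the interaction. Mylip lost its call without vehicle peri-infarct replicate 2 (adjusted p = 0.0551), HPBCD peri-infarct replicate 3 (0.0517) or HPBCD contralateral replicate 2 (0.0533). A further 5 members had interactions between 0.38 and 0.99 or, in Abcg4, of -0.54, with adjusted p from 0.0769 to 0.110. With each animal as a block both were called as well (adjusted p = 0.0192 for Pltp and 0.0199 for Mylip), and no other member was, where the lowest adjusted p was 0.0591 (Abca1). The count of called members was 1 without any of the 3 libraries just named, 5 when vehicle peri-infarct replicate 3 was left out and 6 when HPBCD peri-infarct replicate 2 was. Abcg1, Abcg4 and Nr1h3 passed the test between regions in HPBCD but not in vehicle mice, but by edgeR over all libraries their difference between regions is not shown to differ between treatments. The interaction of Abcg4 was called by DESeq2 (adjusted p = 0.0495) and limma voom (adjusted p = 0.00412), and that of Abcg1 by limma voom (adjusted p = 0.0450). Without HPBCD peri-infarct replicate 2 edgeR called both, with adjusted p = 0.0165 for Abcg4 and 0.0298 for Abcg1.

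**Figure D4:**
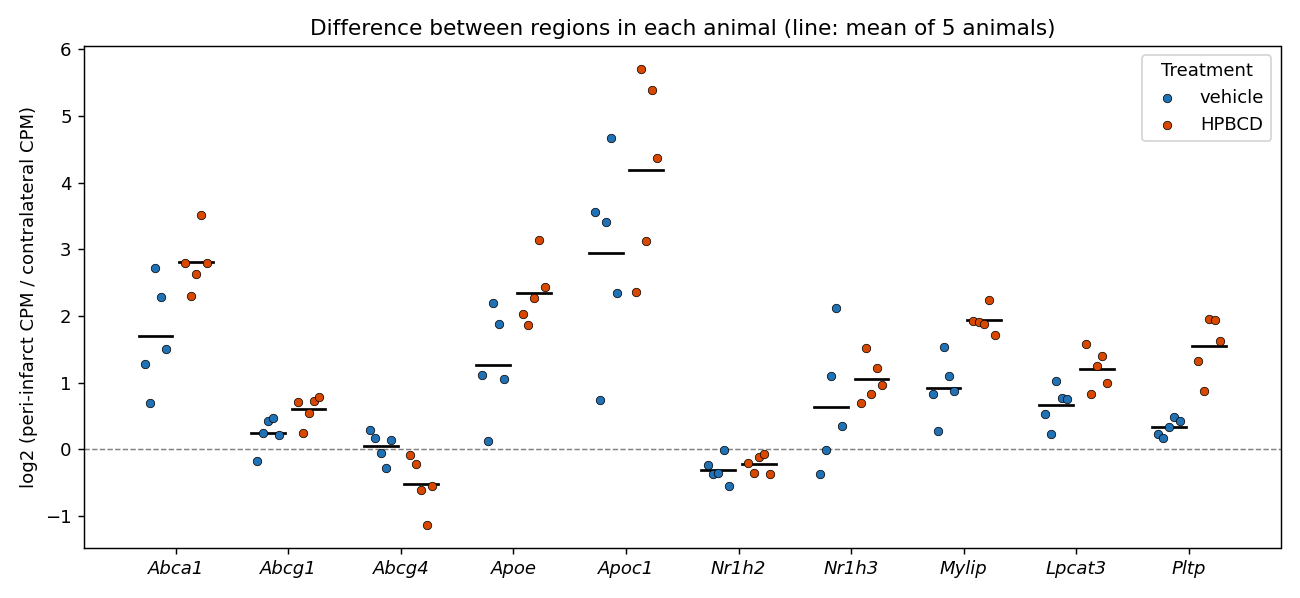
Log2 ratio of peri-infarct to contralateral CPM in each animal (vertical axis) for the 10 members, 5 vehicle and 5 HPBCD animals, with the mean as a line. In Pltp and Mylip every HPBCD animal lies above every vehicle animal, whereas in Apoe, Apoc1 and Nr1h3 the 2 sets of animals overlap.

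All 8 neuronal and all 8 astrocyte markers examined were present in every library, as brain tissue should have them. Markers of several cell types moved between the same libraries as the members did. Counts of called markers here and below are to be read against the shares of all genes tested. Between regions these were 10.5% higher and 9.70% lower in vehicle mice and 30.3% and 24.3% in HPBCD mice. Between treatments in peri-infarct tissue they were 12.4% and 9.00%, and in the interaction 5.03% and 4.38%. The summed level of 10 markers of microglia and macrophages that hold lipid or take on the disease-associated state (Trem2, Gpnmb, Spp1 and others) ran from 40.8 to 64.8 CPM in vehicle contralateral and from 96.8 to 698 CPM in vehicle peri-infarct libraries. In HPBCD libraries it ran from 43.3 to 89.3 and from 421 to 1082 CPM. All 10 markers were called higher in the peri-infarct region in both treatments. In HPBCD against vehicle peri-infarct tissue 1 of 10 was called higher, where 12.4% of all genes were. The median log2 fold change of the 10 markers was nevertheless 1.03 in that comparison, against 0.01 for all genes. In contralateral tissue Itgax and Msr1 were at 0 in at least 1 vehicle library.

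The libraries with the most and the least Abca1 in the vehicle peri-infarct group, replicates 3 and 2, also had the highest and the lowest sum of these markers (698 and 96.8 CPM). In the HPBCD peri-infarct group replicates 4 and 2 had the highest and the lowest of both (1082 and 421 CPM). Pltp was also highest in vehicle replicate 3 (64.3 CPM) and lowest in HPBCD replicate 2 (66.5 CPM), but its lowest vehicle level (42.1 CPM) was in replicate 4, at 529 CPM of the markers. In these bulk samples more cells of a type and more RNA per cell cannot be told apart, and the part of cell composition in the members' differences was not tested.

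**Figure D5:**
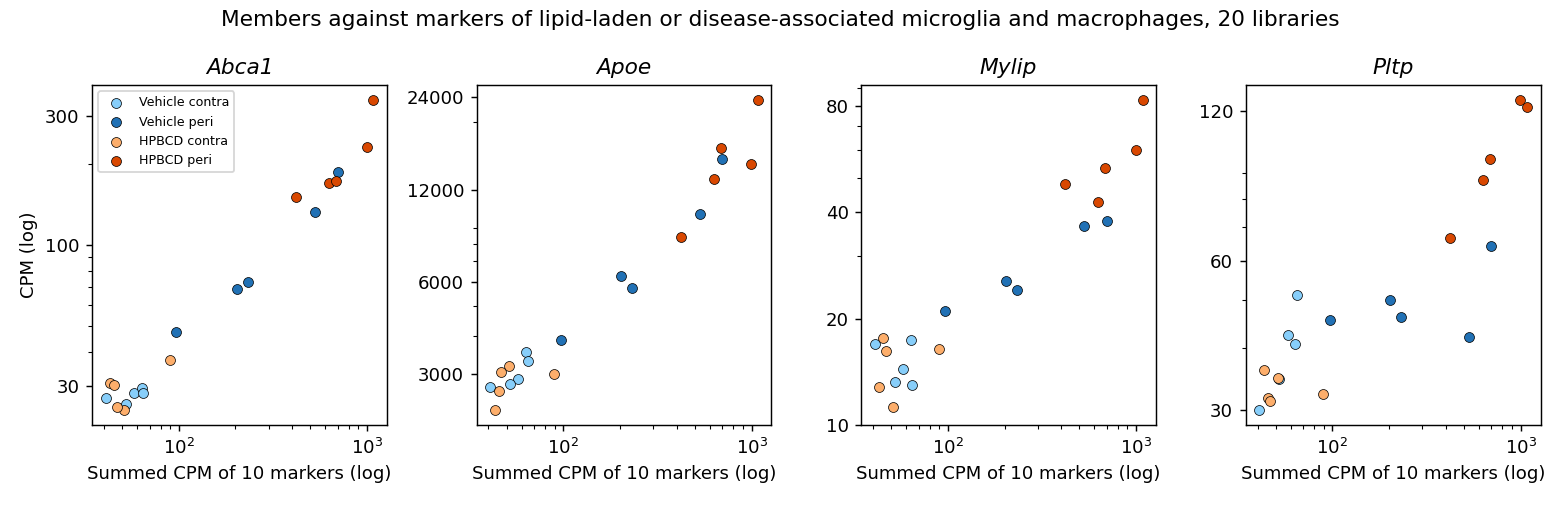
CPM of Abca1, Apoe, Mylip and Pltp (vertical axes, log) against the summed CPM of 10 markers of lipid-laden microglia and macrophages (horizontal axis, log) in 20 libraries, coloured by group. Abca1 and Apoe are lowest in the contralateral libraries, which hold the least marker RNA, and the HPBCD peri-infarct points of Pltp lie above the vehicle points.

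All 8 markers of homeostatic microglia and all 8 of reactive astrocytes were called higher in the peri-infarct region of both treatments. The reactive astrocyte sum ran from 771 to 3757 CPM in vehicle and from 3261 to 6628 CPM in HPBCD peri-infarct libraries, against 205 to 413 CPM in all contralateral ones. Between treatments in the peri-infarct region, 6 of 6 fibroblast and meningeal markers, 5 of 7 border macrophage markers and 5 of 8 reactive astrocyte markers were higher in the libraries labelled HPBCD. In the same comparison 7 of 8 neuronal markers were lower, whereas 0 of 8 homeostatic microglia markers were called. The median log2 fold change of those microglia markers was 0.33, against 0.01 for all genes. The fibroblast sum was 49.1 to 273 CPM in vehicle and 311 to 991 CPM in HPBCD peri-infarct libraries, with no overlap between treatments, as in Pltp and Mylip. The sum of 5 ependymal markers had the same pattern, at 24.4 to 55.8 against 85.0 to 166 CPM, with 4 of 5 called between treatments and 5 of 5 in the interaction. The sum of 6 choroid plexus markers was 6.32 to 79.6 CPM in vehicle and 26.7 to 693 CPM in HPBCD peri-infarct libraries, and 2 of the 5 tested were called higher. In HPBCD contralateral tissue replicate 3 held 643 CPM of them, against 1.41 to 6.85 CPM in the other 4 libraries. Without that replicate Abca1, which was not called there, went from 0.08 to -0.02 between treatments. The sum of 8 oligodendrocyte markers was 5759 to 7241 CPM in HPBCD contralateral and 12995 to 19966 CPM in HPBCD peri-infarct libraries. All 8 were called higher there, none of 8 in vehicle mice and 3 of 8 in the interaction. Of all genes tested, 30.3% were called higher there, 10.5% in vehicle mice and 5.03% in the interaction. In HPBCD mice the neuronal sum moved in the direction of Abcg4. It ran from 11268 to 11971 CPM in contralateral and from 3367 to 6095 CPM in peri-infarct tissue. Its lowest library, HPBCD peri-infarct replicate 4, was also the lowest for Abcg4. In vehicle mice the neuronal sum fell as well, from between 9534 and 11088 CPM to between 6065 and 8397 CPM. Abcg4 was not called between regions there, with a log2 fold change of 0.04. Which of these cells contributed to the members' values was not tested.

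Other genes of the pathway were followed in 5 lists of 58 genes. Their counts are to be read against the shares of all genes tested, which were 10.5% higher and 9.70% lower between regions in vehicle mice, 30.3% and 24.3% in HPBCD mice, 12.4% and 9.00% between treatments in peri-infarct tissue and 5.03% and 4.38% in the interaction. Of 15 other LXR-responsive genes, 4 of the 12 tested rose in the peri-infarct region of vehicle mice, 7 of 13 rose and 2 fell in HPBCD mice, and 4 of 13 were higher in HPBCD than in vehicle peri-infarct tissue. The interaction called 3 of 13, all higher. Srebf1, which encodes the regulator of fatty acid synthesis, stood at 52.5 to 77.3 CPM in vehicle contralateral and 90.3 to 152 CPM in vehicle peri-infarct libraries (log2 fold change 0.70, SE 0.14, adjusted p = 0.00795). In HPBCD mice it stood at 51.7 to 61.5 and 125 to 185 CPM (1.51, SE 0.10, adjusted p = 4.96e-07). Its interaction was 0.80 (SE 0.18, adjusted p = 0.0185). Tgm2, a transglutaminase of macrophages and other cells, had an interaction of 0.95 (adjusted p = 0.0431) and Smpdl3a, a phosphodiesterase known as an LXR target of macrophages, one of 0.71 (adjusted p = 0.0344). The exons of Tgm2 share 1003 of their 4608 bases with Rprd1b and Gm20412 on the other strand.

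Lpl, the lipoprotein lipase gene, was higher in the HPBCD peri-infarct than in the HPBCD contralateral region by 2.10 on the log2 scale (SE 0.21, adjusted p = 5.53e-06). In vehicle mice it was 1.13 (adjusted p = 0.0661). Cd5l, a secreted protein of macrophages, was the member of this list with the largest difference between treatments in peri-infarct tissue, at 0.103 to 2.94 CPM in vehicle and 5.83 to 62.8 CPM in HPBCD libraries (4.14, SE 0.86, adjusted p = 0.0148). Fads1 and Arl4c fell in the HPBCD peri-infarct region, by 0.25 (adjusted p = 0.00991) and 0.31 (adjusted p = 0.00558).

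Of 13 lipoprotein components and receptors, 3 of 10 tested rose in the vehicle and 5 of 11 in the HPBCD peri-infarct region, where 2 fell. The interaction called 1 of 12. Apod, an apolipoprotein of glia and fibroblasts, stood at 152 to 666 CPM in vehicle and 867 to 2228 CPM in HPBCD peri-infarct libraries, against 95.7 to 220 CPM in all contralateral ones. Its interaction was 2.12 (SE 0.44, adjusted p = 0.0161). Clu, a further apolipoprotein of astrocytes, rose by 0.73 (adjusted p = 0.00642) in vehicle and 1.31 (adjusted p = 2.58e-06) in HPBCD mice.

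Of 7 genes that make or clear oxysterols, the natural LXR ligands, all 7 were called between regions in HPBCD mice, 4 higher and 3 lower, and in vehicle mice 1 was called higher and 1 lower of 6 tested. The interaction called 1 of 7, and between treatments in peri-infarct tissue 3 were called higher and 1 lower. Cyp46a1, the neuronal enzyme of 24-hydroxycholesterol, was lower in HPBCD than in vehicle peri-infarct tissue, at 114 to 193 CPM against 199 to 246 CPM (-0.59, SE 0.14, adjusted p = 0.0193). Cyp27a1, which makes 27-hydroxycholesterol, was higher, at 6.03 to 11.2 CPM against 3.28 to 5.54 CPM (0.97, SE 0.18, adjusted p = 0.0128). Hsd3b7, a downstream enzyme of bile acid synthesis, had an interaction of 1.14 (adjusted p = 0.0240). Of its 2769 exon bases, 1729 are shared with 9430064I24Rik on the other strand and 1717 with Gm49388 on the same strand. Its counts are therefore uncertain. Cyp39a1, which clears 24-hydroxycholesterol, fell in the peri-infarct region of vehicle (-1.32, adjusted p = 0.0148) and HPBCD mice (-0.83, adjusted p = 0.000502). In peri-infarct tissue it was higher in HPBCD than in vehicle mice, at 4.11 to 6.08 CPM against 2.09 to 3.83 CPM (0.89, SE 0.18, adjusted p = 0.0140).

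Among 12 partners and coregulators of LXR 4 rose between regions in HPBCD mice, a share near that of all genes (30.3%). None of the 12 was called in vehicle mice and none in the interaction. Rxrg rose by 3.50 (SE 0.31, adjusted p = 2.15e-06; in vehicle mice, where contralateral replicate 1 held 65.5 CPM, it was 0.89 with adjusted p = 0.596), Ncoa3 by 0.46 (adjusted p = 0.00125) and Gps2 by 0.30 (adjusted p = 0.0221). Rxra rose by 0.30 (adjusted p = 0.0107) and was also higher in HPBCD than in vehicle peri-infarct tissue, by 0.28 (adjusted p = 0.0441). Of 11 other lipid transporters of the ABC family, 3 rose in vehicle and 7 rose and 2 fell in HPBCD peri-infarct tissue. Between treatments in peri-infarct tissue 4 of the 11 were higher, and the interaction called 2 higher and 1 lower. Abcb1a, which encodes a drug exporter of brain capillaries, stood at 26.3 to 46.9 CPM in vehicle and 53.2 to 109 CPM in HPBCD peri-infarct libraries, with no overlap (1.11, SE 0.21, adjusted p = 0.0130). Abca9, a transporter that is found in macrophages, rose by 1.17 (adjusted p = 0.00307) in vehicle and 2.11 (adjusted p = 1.64e-06) in HPBCD mice and had an interaction of 0.92 (adjusted p = 0.0391). The interactions of Abcg2, an exporter of brain capillaries, and of Abca5 were 0.57 (adjusted p = 0.0443) and -0.42 (adjusted p = 0.0440). No gene of the 5 lists was called in contralateral tissue.

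For each member the genes with the most similar pattern were ranked by the root-mean-square difference of log2 CPM, each centred on its mean over the 20 libraries, among 11786 genes with at least 5 CPM on average. The genes nearest to Abca1 were Lcp1, Tent5c and Ctsc, at 0.20 to 0.23, where Abca1 itself varied by 1.27. Those nearest to Apoe were Ctsd, Spi1 and Ctsh, at 0.14 to 0.16 (own variation 1.06), of which Spi1 encodes the myeloid factor PU.1 and Ctsd and Ctsh lysosomal proteases. Apoc1 was nearest to Spp1, H2-Ab1 and Apobec1 (0.53 to 0.59, own variation 1.89). Mylip was nearest to Lhfpl2, Casp8 and Rab3il1 (0.18 to 0.20, own 0.84), Lpcat3 to Adam17, Epb41l2 and Mob1a (0.13 to 0.14, own 0.53), and Pltp to Hacl1, Sorbs3 and Pxn (0.19, own 0.64).

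Abcg1 was nearest to Npc1, the gene of the lysosomal cholesterol exporter, at 0.10 (own variation 0.29), followed by Pik3ip1 and 5031439G07Rik. Abcg4 was nearest to Tmem178b, Mapk8ip3 and Shank2 at 0.10 (own 0.29), of which Shank2 encodes a scaffold of synapses. Nr1h3 was nearest to Myd88, Bag3 and Mt1 (0.31 to 0.32, own 0.64) and Nr1h2 to Selenok, March2 and Eef1g (0.09 to 0.10, own 0.20). All these values rest on the same 20 libraries of 4 groups and describe similarity only.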

How the data were processed

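RNA was sequenced from 20 libraries, 5 per group. Per the labels and the study's methods, libraries were made with a stranded mRNA kit, and the authors processed reads with bcl2fastq 2.19, Trimmomatic 0.32, STAR 2.5.2b on GRCm38 and HTSeq. The annotation release and the strand setting were not given in the sources used here. The deposited values are raw counts of read pairs per gene. The 5 lines that name no gene held 25.1% to 40.1% of read pairs and were left out. HPBCD contralateral replicate 4 stood apart, with 9.50% of read pairs in no feature and 8.03% ambiguous. In the other libraries these shares were at most 5.86% and 4.16%. That replicate also had the fewest counts in genes (14445021). Ensembl identifiers were matched to GENCODE M21 for symbols, positions and exon lengths (45143 of 46078 genes, 97.97%). No 2 libraries were identical. Treatments were taken from the labels, since HPBCD targets no transcript by which they could be checked.

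Counts were tested with edgeR 4.0.16 in R 4.3.3 (glmQLFit, glmQLFTest, TMM factors, filterByExpr), and scripts were tested on simulated data with 200 changed genes. DESeq2 1.42.0, limma 3.58.1 with voom, other scaling factors, other filters, 1 fit of all groups, a replicate block and leaving out each library were alternatives. The standard error was derived from the F statistic. Ratios used log2 of counts plus 0.5 (alternative 5) and exact permutation tests over all 252 splits. P-values measure the spread between animals of these groups only, and counting floors of 3 counts cover counting error only.

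All 10 members were described. Of the pathway lists, up to 3 genes per list and comparison that rose and 3 that fell most were named, with an adjusted p under 0.05 and a mean of at least 5 CPM, and for the pattern of each member the 3 nearest genes. 1 gene that this rule names is not reported here. The members and lists were chosen with earlier results of these data known. The pairing of regions rests on the shared animal identifier. The deviations of paired libraries from their group means correlated by 0.163 on average over 10 pairs, above 0.1 in 6 of them (11794 genes).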

Additional observations from a re-analysis of the deposited data

Results flagged for a closer look

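In vehicle contralateral tissue, replicate 4 stood apart from the other 4 libraries for 2 members. Its Abcg4 level was 42.3 CPM, where the nearest library held 35.1 CPM, and its Nr1h2 level was 36.5 CPM, where the nearest held 47.8 CPM. Both gaps exceeded Dixon's 95% critical value for 5 samples. In all, 40 sets of 5 libraries were examined, and chance flags about 1 in 20 of them.

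The difference between regions differed between treatments for Mylip, by 1.00 on the log2 scale, and for Pltp, by 1.26. Both passed the interaction test of edgeR (adjusted p = 0.0276 and 0.0139), and in both the 5 HPBCD animals lay above the 5 vehicle animals. Pltp kept its call in all 27 alternative fits, whereas Mylip lost its call in 3 of them.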

How the results depend on the processing

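In vehicle mice 5 to 6 members were called between regions without 1 library, and 7 with the replicate block. In HPBCD mice it was 8 to 10. HPBCD against vehicle in peri-infarct tissue called 4 members, 2 to 8 without 1 library, and 8 by limma voom, 9 with the replicate block (between treatments the number is only a name) and 8 in 1 fit of all 4 groups. The interaction called 2, with 1 to 6 without 1 library and 7 by limma voom. In contralateral tissue no alternative called a member. With the replicate block no ratio could pass (Nr1h3 to Nr1h2 1.26, Abcg4 to Abcg1 -1.13, Abca1 to Abcg1 1.46 and 2.20, adjusted p = 0.0833 each, exact sign-flip test), since 5 pairs allow no lower p than 0.0625. Pltp between regions of vehicle mice was the only member whose call in a comparison of regions changed with the replicate block.

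Without 1 library the Abca1 to Abcg1 difference ran from 1.24 to 1.63 in vehicle and 2.07 to 2.28 in HPBCD mice between regions, and from 0.69 to 1.08 between treatments in peri-infarct tissue. Nr1h3 to Nr1h2 ran from 1.17 to 1.37 in HPBCD and 0.77 to 1.11 in vehicle mice. Abcg4 to Abcg1 ran from -1.32 to -0.92 between regions in HPBCD mice and from -0.96 to -0.56 between treatments. A call was lost 16 times for Abca1 to Abcg1 and 9 times each for Nr1h3 to Nr1h2 and Abcg4 to Abcg1. It was gained 1 time for each of these ratios. With 1 library fewer there are fewer splits, so the exact test cannot give as low a p. Apoc1 to Apoe ran from 1.35 to 1.79 in vehicle, 1.13 to 1.96 in HPBCD and -0.071 to 0.763 between treatments in contralateral tissue.

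Direction turned only in uncalled values near 0. Without 1 library Abcg4 in vehicle mice between regions ran from -0.022 to 0.106, and in contralateral tissue Abca1 ran from -0.018 to 0.140, Abcg1 from -0.119 to 0.037, Nr1h2 from -0.073 to 0.049 and Mylip from -0.092 to 0.059. By limma voom Nr1h2 was -0.072 and Mylip 0.055 there. The causes were not tested. Depth limits Apoc1 and Nr1h3.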
